A study of Mus musculus with 50 samples.

Results

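Heterotrimeric G proteins carry the signal of a receptor through an alpha subunit and a tight dimer of a beta and a gamma subunit. Described here are 10 genes for these dimers, the gamma subunit genes Gng2, Gng3, Gng4, Gng5, Gng7 and Gng13 and the beta subunit genes Gnb1, Gnb2, Gnb4 and Gnb5, in hippocampi of WT (wild-type) and TG (transgenic) mice on Agilent two-color arrays. They were chosen by name, with their response on these arrays already known, and are measured by 18 of the 41174 probes that are not controls. The TG mice over-express δC-DCLK-short, a splice variant of doublecortin-like kinase 1 that is constitutively active as a kinase. All mice were male and on a C57/BL6j background, and both hippocampi of each mouse were taken. The sources used here give neither the age of the mice nor the promoter of the transgene. The 5 WT mice are numbered WT1 and WT3 to WT6, and the 5 TG mice TG1 to TG5. Each of the 10 arrays held 1 WT and 1 TG mouse, and each mouse was used with either dye in turn, with a different partner for each.

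When a receptor activates the alpha subunit, the beta-gamma dimer is set free and acts by itself: it opens inwardly rectifying potassium channels, closes presynaptic calcium channels, binds the release machinery of the synapse and steers adenylyl cyclases, phospholipase C-beta and receptor kinases. The gamma subunit carries a prenyl lipid at its C terminus, which holds the dimer at the membrane. Gng3 encodes a gamma subunit that is abundant in neurons, Gng7 is best known from the striatum, Gng13 from taste and retinal cells, and Gnb5 is the divergent beta subunit that pairs with R7 RGS proteins. In a sample of whole tissue, a change in the number of cells of a type and a change in the RNA per cell cannot be told apart.

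On mouse chromosome 19, Gng3 lies head to head with Bscl2, the gene of the lipid droplet protein seipin. In the RefSeq annotation of GRCm38.p6, Gng3 spans 8836929 to 8839246 on the minus strand and Bscl2 spans 8837467 to 8848683 on the plus strand, so their gene models overlap. The start of Gng3 at 8839246 and a start of Bscl2 at 8839328 are separated by 81 bases, which are shown because they lie before the starts of both genes. The 81 bases before the starts of Gng2 and Gng13 are shown beside them, as these are the other 2 genes of the set that were called between genotypes. Lower case is used throughout, and capitals mark a match to the GC box, GGGCGG on either strand.
Gng3, chr19:8839247-8839327, minus strand, GRCm38.p6: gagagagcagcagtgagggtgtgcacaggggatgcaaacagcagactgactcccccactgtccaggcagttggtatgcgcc
Gng2, chr14:19976694-19976774, minus strand, GRCm38.p6: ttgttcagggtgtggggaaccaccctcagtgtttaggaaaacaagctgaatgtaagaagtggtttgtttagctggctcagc
Gng13, first start, chr17:25717091-25717171, plus strand, GRCm38.p6: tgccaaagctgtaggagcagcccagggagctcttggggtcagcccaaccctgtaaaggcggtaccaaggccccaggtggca
Gng13, second start, chr17:25717447-25717527, plus strand, GRCm38.p6: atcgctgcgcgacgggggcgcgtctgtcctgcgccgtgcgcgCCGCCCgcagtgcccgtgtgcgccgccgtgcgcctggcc

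The table of starts held 9 of the 10 genes, with 12 starts, and Gnb4 had no entry. Over the 250 bases before each start, 5 motifs that do not contain each other were searched on both strands: the TATA box TATAAA, the CCAAT box CCAAT, the GC box GGGCGG, the E-box CACGTG and the cyclic AMP response element TGACGTCA. The windows of Gng3 and Gng2 held none of these. A GC box was found in 5 of the 12 windows, those of Gng4, Gng5, Gng7, Gng13 and Gnb1, against 32.7% of the 32851 windows of all genes. For Gng4, Gng7 and Gng13 it was absent from the window of their other start. The CCAAT box was found in 2 of the 12 windows, of Gng4 and Gng7 (33.8% of all windows). The TATA box was found in 1, of Gnb5 (12.4%), and the E-box (6.02%) and TGACGTCA (1.55%) for no member. The share of G and C in the 250 bases ran from 41.2% for Gng2 to 82.4% for Gng5, with 56.8% for Gng3 and a median of 52.4% over all genes.

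Every Agilent direction below rests on the array labels, and these are in doubt. Arrays labelled 1 to 5 carry WT in Cy3 and TG in Cy5, and arrays labelled 6 to 10 carry TG in Cy3 and WT in Cy5. Read in this way, Gng3 is higher in TG mice, whereas the study gives the opposite direction for this gene on Agilent, at about the same size. By qRT-PCR of the same RNA samples the study also gives Gng3 as lower in TG mice, with a smaller change than on Agilent. On its other platforms the direction of Gng3 varied and the changes were smaller too. If the first 5 arrays had changed places with the last 5, every mean log2 ratio over the 10 arrays would turn its sign and keep its size, while values and counts per mouse would change, and the part of the study's expression table held for this work follows that exchange more closely than the labels. The channels did not settle the question: the median correlation of the 2 channels of a mouse, over 33793 probes present on all arrays, was 0.174 as labelled and 0.223 after the exchange (10 pairs each, of which the assignments share 2), against -0.0702 for 32 other channel pairs of 1 genotype. The log ratios of pairs of arrays correlated between -0.264 and 0.815. Over its 4 probes Dclk1, from which the transgene derives, averaged -0.07 in log2 ratio ± 0.10 (SD, n = 10 arrays, FDR 0.273 with limma and Benjamini-Hochberg adjustment over genes). Whether its probes lie in the transgene is not given in the sources used here, so it checks nothing. Directions are given as labelled.

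As labelled, Gng3 was the subunit gene whose WT and TG mice did not overlap. Its level, the log2 signal averaged over its 2 probes and over both dyes, was 10.77 in WT1, 10.50 in WT3, 10.53 in WT4, 10.62 in WT5 and 10.77 in WT6. In the TG mice it was 11.11 in TG1, 11.15 in TG2, 11.26 in TG3, 11.37 in TG4 and 11.12 in TG5. The lowest TG mouse, TG1, thus stood above the highest WT mouse, WT6. The means were 10.64 ± 0.13 for WT and 11.20 ± 0.11 for TG (SD, n = 5 mice each), a difference of 0.57 on the log2 scale. Over all 34557 genes or unnamed probes, 2.12% had WT and TG mice that did not overlap, and of single probes 2.08%, among them both of Gng3. Gng3 was picked for this contrast, so nothing is read from that share, and its calls given below are descriptions. After the exchange of arrays the 2 genotypes also did not overlap, with WT levels of 11.08 to 11.37 and TG levels of 10.46 to 10.79 (TG1 the highest). Gng13 did not overlap either after the exchange, whereas the other 8 genes did. No share over all genes is given for the exchange, so nothing is read from these 2 genes.

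**Figure D1:**
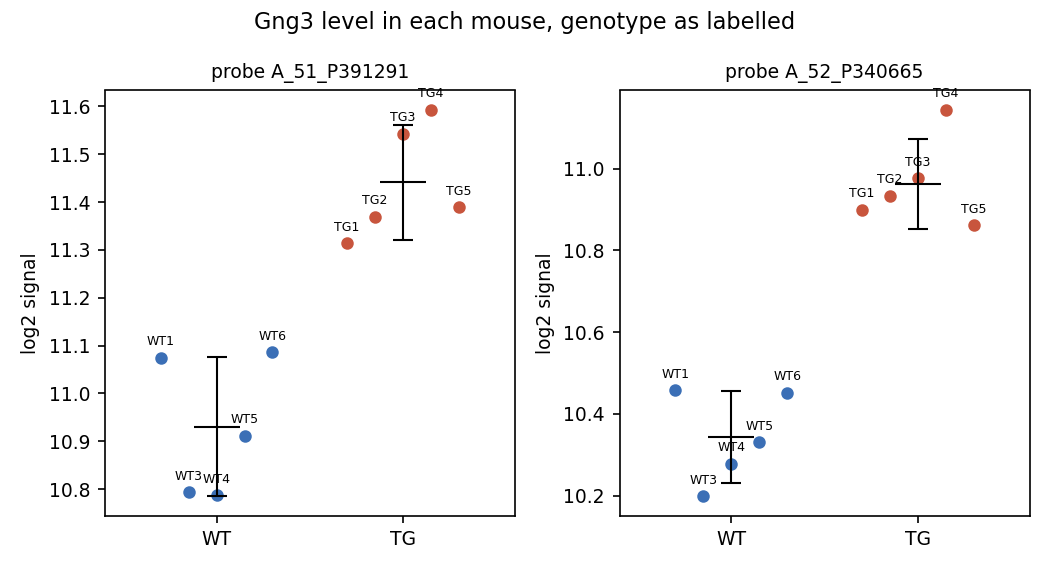
Level of the 2 Gng3 probes in each mouse, as log2 signal after loess and Aquantile normalization (y axis, scaled per probe), for 5 WT and 5 TG mice as labelled. Points are mice, bars the mean ± SD, and on both probes the 5 TG mice lie above the 5 WT mice.

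Both Gng3 probes gave a positive log2 ratio of TG over WT on 10 of 10 arrays, which 2.11% of all probes did in either direction. Probe A_51_P391291 averaged 0.51 ± 0.25 (SD, n = 10 arrays), a 1.43-fold ratio, and probe A_52_P340665 averaged 0.62 ± 0.34, a 1.54-fold ratio. They lie 655 bases apart by the start positions in the files (chromosome 19, 8034468 to 8034527 and 8035123 to 8035182, minus strand), which belong to a genome build that the file headers do not name. On arrays 1 to 5 the mean of the probes was 0.37, 0.59, 0.69, 0.16 and 0.23. On arrays 6 to 10 it was 0.81, 0.49, 0.87, 1.05 and 0.40. The ratios were thus of the same sign in both dye orientations, with a mean of 0.41 on arrays 1 to 5 and of 0.72 on arrays 6 to 10, and the smallest came from WT5 against TG3 on array 4. Over the 10 arrays the 2 probes correlated at r = 0.915, a description over arrays that share mice. Raw signals of these probes were between 806 and 5752 in both channels, were well above background on all arrays and were never saturated.

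Gng2, which encodes a gamma subunit found in many tissues, had levels of 8.65 in WT1, 7.92 in WT3, 8.15 in WT4, 8.43 in WT5 and 8.70 in WT6. The TG mice had 8.71 in TG1, 8.87 in TG2, 8.80 in TG3, 9.01 in TG4 and 8.34 in TG5. All TG mice but TG5 stood above every WT mouse. The mean log2 ratio over arrays was 0.38 ± 0.30 (SD, n = 10) and positive on 9 arrays, the exception being array 5 at -0.10. Its probe A_51_P220813 averaged 0.44 and its probe A_52_P263518 averaged 0.31. The second probe was low in WT3 (8.03) and TG5 (8.29), which share array 2, and on the first these mice had 7.81 and 8.40.

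Gng13, the gamma subunit gene best known from sensory cells, gave the largest mean ratio of the set and the widest spread. Levels on its 1 probe were 8.49 in WT1, 7.68 in WT3, 7.72 in WT4, 8.34 in WT5 and 8.59 in WT6. In the TG mice they were 8.53 in TG1, 8.65 in TG2, 9.01 in TG3, 8.98 in TG4 and 9.12 in TG5. As labelled, WT3 and WT4 lay far below the other WT mice, and TG1 lay below WT6. After the exchange of arrays the WT levels ran from 8.71 to 8.98 and the TG levels from 7.54 to 8.60. The mean log2 ratio was 0.69 ± 0.63 (SD, n = 10 arrays), or 1.62-fold, and ran from -0.39 on array 5 to 1.49 on array 9, with 8 positive arrays. Its spot on array 5 carried an outlier flag of the scanner software.

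Gng5, a small and widely expressed gamma subunit gene, had 3 probes that differed. Probes A_51_P237166 and A_52_P678261 averaged 0.30 ± 0.42 and 0.33 ± 0.43 (SD, n = 10 arrays) and did not pass the FDR. The third, A_52_P640337, was not well above background on any array and averaged -0.01. On the gene's mean level the TG mice were close together, between 7.88 and 7.98, while the WT mice spread from 7.52 to 7.97, with WT3 and WT4 again the lowest.

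Gng7 had levels between 6.91 and 7.24 in WT and between 7.07 and 7.22 in TG mice, and a mean log2 ratio of 0.06 ± 0.18 (SD, n = 10 arrays). Its probe A_52_P331883 averaged 0.16 with 8 positive arrays, and its dim probe A_51_P443686, well above background on 9 arrays, averaged -0.04. Gng4, a gamma subunit gene of the nervous system, ranged from 6.61 to 6.98 in WT and from 6.73 to 6.97 in TG mice, with a ratio of 0.02 ± 0.18. For both genes the difference was smaller than the spread between arrays.

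**Figure D2:**
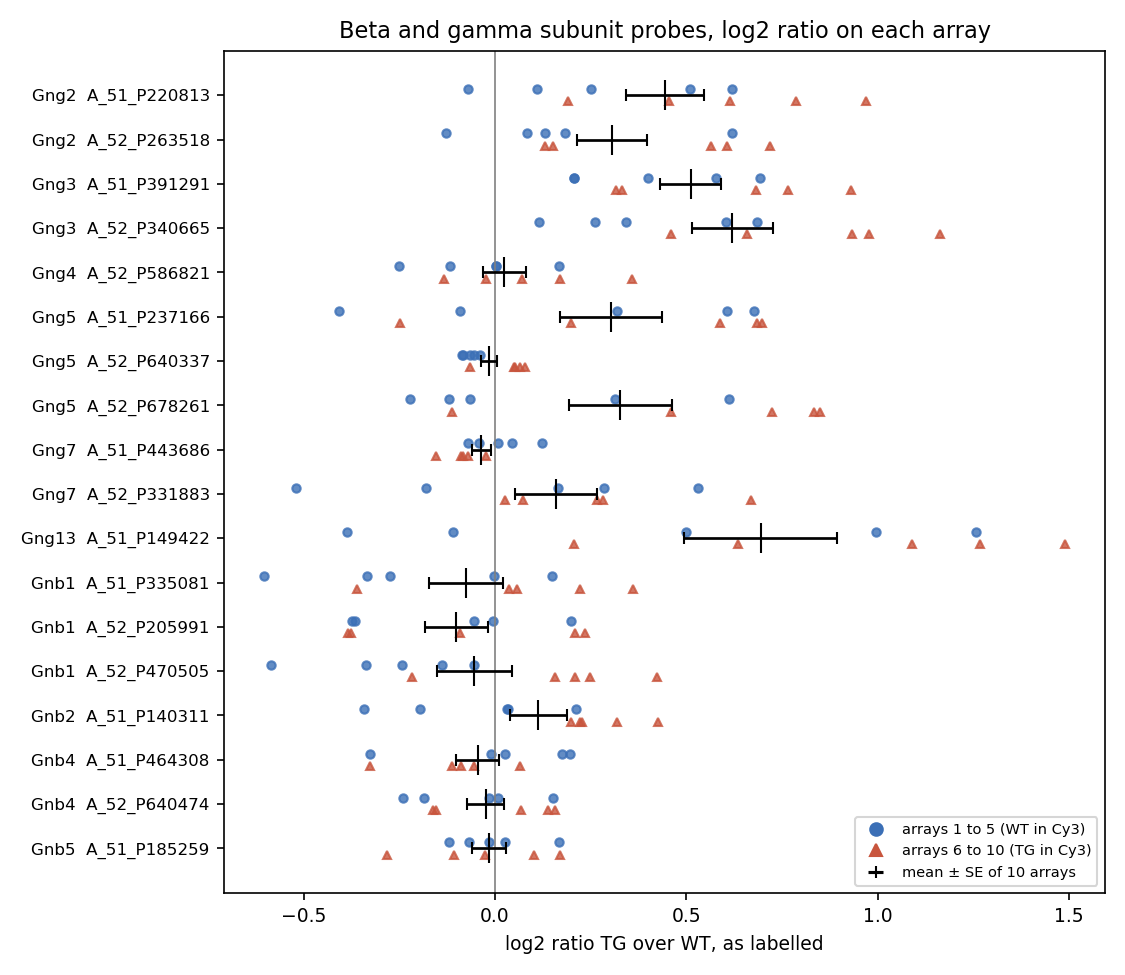
Log2 ratio of TG over WT, as labelled, of the 18 probes of the subunit genes on each array (x axis). Circles are arrays 1 to 5, triangles arrays 6 to 10, and black bars the mean ± SE of the 10 arrays. Only the 2 Gng3 probes have all 10 arrays on the same side of 0, and Gng13 runs from -0.39 to 1.49.

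None of the 4 beta subunit genes was called, and their mean ratios lay between -0.08 and 0.11. Gnb1, the most studied beta subunit gene, had 3 probes with mean ratios of -0.07, -0.10 and -0.05. Its level was lowest in TG4 (8.93) and highest in WT5 (9.50), and the other mice of both genotypes lay between them. The mean ratio of the gene was -0.08 ± 0.27 (SD, n = 10 arrays), with -0.20 on arrays 1 to 5 and 0.05 on arrays 6 to 10. The sign of so small a value moved with the dye orientation, and also turned under median centring of the arrays.

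Gnb2, another beta subunit of broad expression, was positive on 8 of 10 arrays with a mean log2 ratio of 0.11 ± 0.24 (SD). Its WT mice lay between 10.03 and 10.28 and its TG mice between 10.05 and 10.43. The arrays 1 to 5 averaged -0.05 and the arrays 6 to 10 averaged 0.28, so the mean rests on the second orientation. Its spot on array 3 carried an outlier flag.

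Gnb4 was low, with levels of 6.48 to 6.76 in WT and 6.48 to 6.76 in TG mice and a mean log2 ratio of -0.03 ± 0.08 (SD, n = 10 arrays). Of its 2 probes, A_51_P464308 did not exceed the negative control spots on all arrays. Gnb5 had a mean ratio of -0.01 ± 0.14, which turned in sign under median centring. Its WT mice lay between 9.54 and 9.66 and its TG mice, more spread, between 9.41 and 9.80, with TG3 and TG4 below and TG1 and TG2 above all WT mice, and TG5 also above them. For these genes too the differences were within the spread between arrays.

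**Figure D3:**
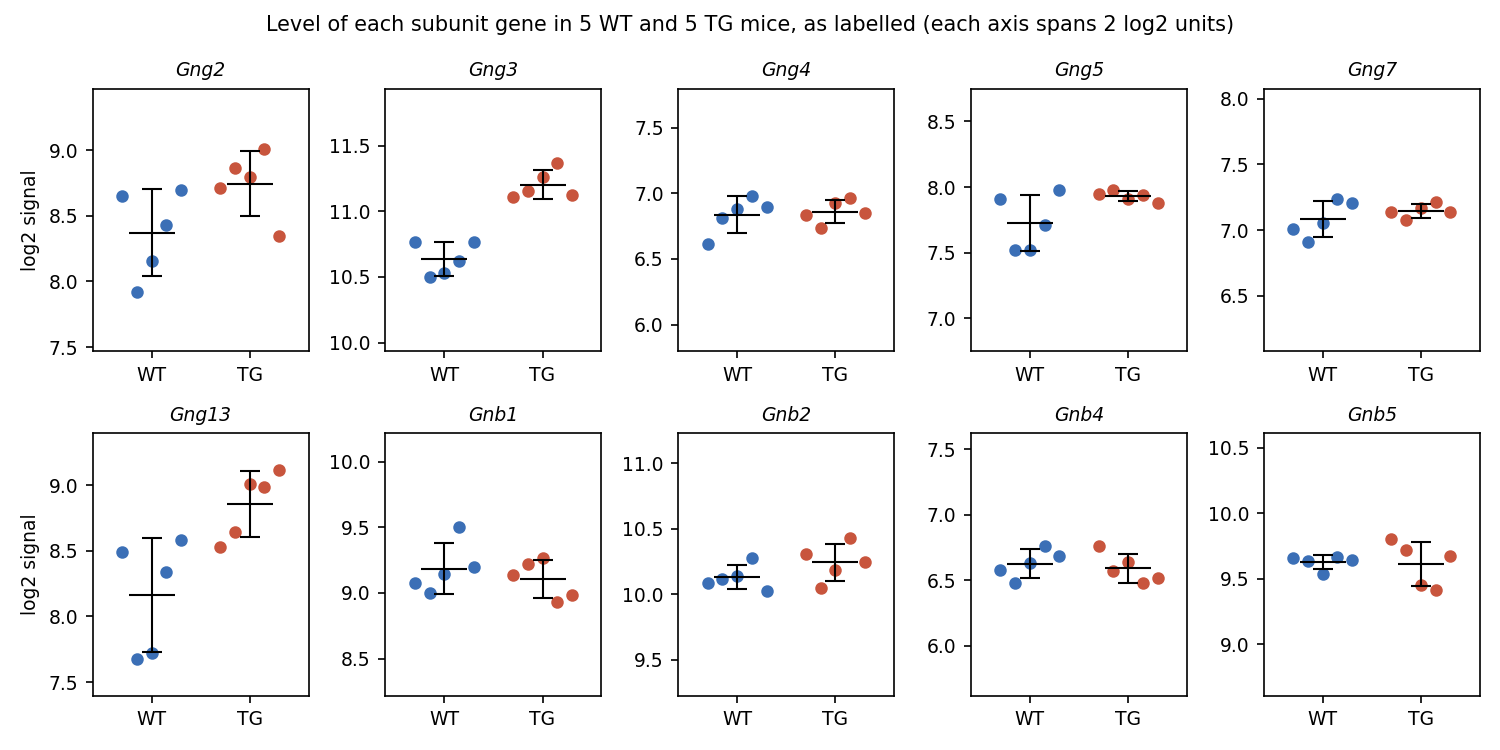
Level of each of the 10 subunit genes in 5 WT and 5 TG mice as labelled, in log2 signal (y axis, 2 log2 units in every panel). Points are mice and bars the mean ± SD. Gng3 shows 2 separate groups, Gng2 and Gng13 shifted but overlapping groups, and the beta subunit genes overlapping groups.

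Of the 18 probes, 5 were called at an FDR of 10%, all higher in TG as labelled: both of Gng2, both of Gng3 and that of Gng13. The other 13 probes did not pass. Over all probes 7.41% were called in either direction (3053 of 41174), 3.66% higher and 3.76% lower. With the probes of a gene averaged, 3 of the 10 genes were called, against 8.21% of 34557. Since the set was chosen with these calls known, the counts describe it and support nothing. The fit takes the 10 arrays as independent, although each mouse was on 2 of them. With 1 value per mouse and limma, 24 probes of the whole array passed (0.0583%), among them 1 member, Gng3 probe A_52_P340665, and 0 probes of the other 9 genes. In the fit over arrays both Gng3 probes were called whichever mouse was left out, again on the values for which Gng3 was picked. Gng2 probe A_51_P220813 was called in 7 of these 10 fits, Gng13 in 3 (without WT1, WT6 or TG1) and Gng2 probe A_52_P263518 in 2 (without WT1 or WT6). Over all probes 282 were called without WT4 and 366 without WT3, and of the members only the 2 Gng3 probes. Without WT6, both brighter Gng5 probes were called as well, which made 7, while 7.77% of all probes were called.

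The log2 ratios of several subunit probes moved together over the arrays. Against the mean of the Gng3 probes, the correlation over 10 arrays was 0.967 and 0.868 for the Gng2 probes and 0.898 for Gng13. The brighter Gng5 probes gave 0.896 and 0.762 and the brighter Gng7 probe 0.654. The Gnb1 probes gave 0.644, 0.558 and 0.0873, Gnb2 0.515 and Gng4 0.361. The dim probes of Gng5 and Gng7 gave 0.732 and 0.122. Negative values came from the Gnb4 probes, at -0.414 and -0.238, and from Gnb5, at -0.694. The named probes outside the set whose pattern was most like that of Gng3 were those of Anp32b (r = 0.982), Znrd2 (0.982), Lsm2 (0.981), Pnkd (0.974) and the microglial gene Aif1 (0.973). Their own mean log2 ratios were smaller, from 0.10 for Lsm2 to 0.36 for Znrd2. Of 20801 present probes with a symbol outside the set, 173 (0.832%) reached r of 0.9 with Gng3 and 15 (0.0721%) reached -0.9. These are descriptions over 10 arrays that share mice and hybridizations. The first principal component of the log ratios held 45.8% of their variance, and Gng3 correlated with it at 0.442 in size.

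Genes that act with the dimer were counted in 6 lists with the same fit over all probes, where 7.41% of probes were called. Of the G alpha subunit genes, which bind the dimer at rest, 1 of 21 probes was called: Gnaq, the alpha subunit that activates phospholipase C-beta, fell by 0.21 on the log2 scale (SD 0.21, n = 10 arrays, negative on 9 of 10, limma FDR 0.0827). Of 7 probes for the other beta and gamma subunit genes, Gng12 rose by 0.15 (SD 0.13, positive on 8 of 10 arrays, limma FDR 0.063). The median log2 ratios of these lists were -0.0028 and 0.0083, against 0.0023 over all probes.

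The effectors of the dimer gave no call: 0 of 30 probes for potassium and calcium channels, adenylyl cyclases, phospholipases C-beta, receptor kinases, the beta-gamma-sensitive phosphoinositide 3-kinase and the synaptic protein Snap25 passed in limma. The smallest p value among them was that of Snap25 probe A_52_P286421, at -0.16 (FDR 0.115), and the list's median was -0.02. The R7 RGS proteins and their anchors, the partners of Gnb5, gave 0 of 8, and Gpr158, an anchor of these proteins, had the smallest p value at a mean log2 ratio of -0.10 (FDR 0.368). Genes for the folding and assembly of the dimer gave 0 of 10, with a Cct2 probe, for a subunit of the chaperonin that folds beta subunits, at -0.68 ± 0.97 (SD, FDR 0.193). Genes for prenyl processing of the gamma subunit gave 0 of 8, with Icmt, which methylates the prenylated end, at 0.23 ± 0.28 (SD, FDR 0.136). At an unadjusted limma p under 0.05 these 4 lists held 3, 0, 3 and 2 probes in the order given. Over all 41174 probes a limma p of 0.0508 held rank 7841, so such probes were common. With 1 value per mouse no probe of the 6 lists was called.

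**Figure D4:**
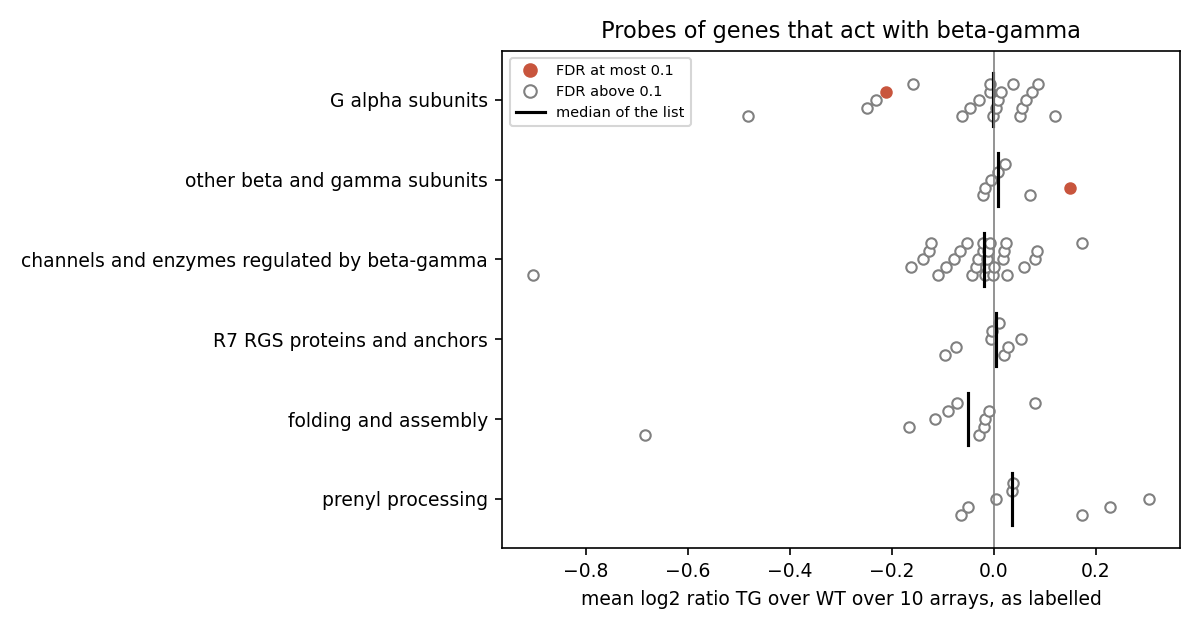
Mean log2 ratio of TG over WT over 10 arrays, as labelled (x axis), of each probe in 6 lists of genes that act with the beta-gamma dimer. Filled points passed an FDR of 10%, and black bars are the list medians, which lie between -0.05 and 0.04.

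Within 100 kb of the Gng3 probes, by the positions in the files, lay 32 further probes. Of these 7 were called higher and 2 lower (28.1%, against 7.41% of all probes), which fall to 6 named genes and 3 probes without a symbol. The list was drawn around a gene chosen for its change, and neighbouring probes share arrays, so the share is a description. By p value the first were the unnamed probe A_51_P453246, 42 kb away, at 0.53 ± 0.30 (SD, limma FDR 0.0152), Tmem223, which encodes a mitochondrial membrane protein, at 0.40 ± 0.25 (FDR 0.0205), the unnamed probe A_52_P1019681 at -0.11 ± 0.06 (FDR 0.0368) and Polr2g, a subunit gene of RNA polymerase II, at 0.20 ± 0.16 (FDR 0.0476). Bscl2, named for its shared start region, had a probe A_51_P196526 that rose by 0.17 ± 0.15 (SD, FDR 0.0656, positive on 9 of 10 arrays). Its other probe, A_52_P256584, which lies nearer to Gng3, averaged -0.11 ± 0.52 (FDR 0.79). The median of the 32 probes was 0.04. With 1 value per mouse none of the 32 was called.

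**Figure D5:**
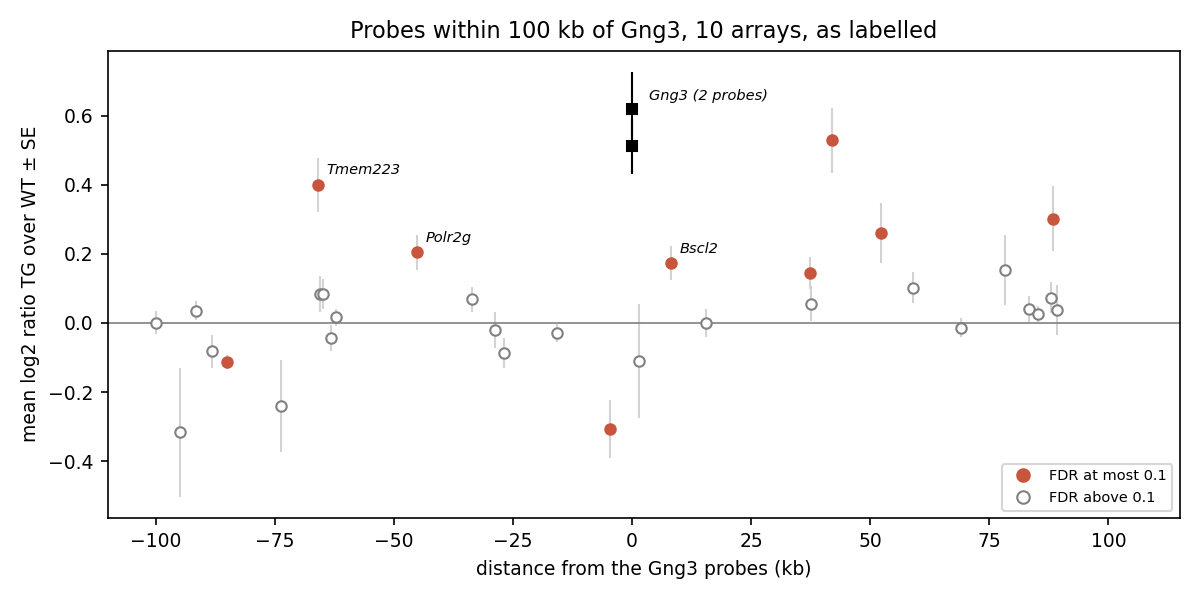
Mean log2 ratio of TG over WT ± SE over 10 arrays, as labelled (y axis), of the probes within 100 kb of Gng3, against their distance from it (x axis, kb). Filled points passed an FDR of 10%, and squares are the 2 Gng3 probes at 0.51 and 0.62.

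Markers of cell types were set beside these values. The excitatory neuron, interneuron, choroid plexus, striatum, thalamus and cortex lists had 0 of 36 probes called at an FDR of 10% in limma. At an unadjusted limma p under 0.05 they held 5, a limit that many probes of the whole array passed. As labelled, 3 of 6 astrocyte probes rose (2 of Aqp4 and that of Aldh1l1). Over all probes 7.41% were called in either direction. The summed linear signal of the 6 was 3283 to 3832 in WT and 3799 to 4682 in TG mice. The brightest of them, that of Slc1a3, was at 0.16 and did not pass (limma FDR 0.574). The probe of Gfap, an intermediate filament gene of astrocytes, was at -0.15 (FDR 0.137, negative on 8 of 10 arrays) and did not pass either. The oligodendrocyte marker Mbp, a myelin protein gene, fell by 0.22 on the log2 scale at probe A_51_P349205 (limma FDR 0.0543, lower in TG on 10 of 10 arrays), and its other probes, at -0.14 (FDR 0.267) and -1.15 (FDR 0.187), did not pass. Of 8 microglia probes 2 rose (1 of Aif1 and that of Tmem119), with sums of 1937 to 2341 and 2097 to 2438. C1ql2 of the dentate granule cell list and Bok of the pyramidal cell list fell as labelled, each 1 probe. The study gives Bok as higher in TG mice on every platform and by qRT-PCR, on Agilent at about the size found here. Of the lists for hippocampal neurons, 5 of 6 dentate granule cell probes and 4 of 5 pyramidal cell probes exceeded the negative control spots on all arrays. So did 6 of 6 striatum and 9 of 9 thalamus probes, so these levels do not check the label of hippocampus. The part of these shifts in the subunit values was not tested.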

How the data were processed

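Total RNA of 5 WT and 5 TG mice was amplified, labelled and hybridized to 10 arrays with 2 dyes. The authors deposited, per the file headers, unnormalized spot intensities of both dyes (mean and median of the pixels) from Feature Extraction, with flags and a log10 ratio of Cy5 over Cy3 that this software had corrected for background and dye. Groups came from the sample titles. Mean intensities were not corrected for background, loess was applied within each array with control spots at weight 0, and spots of a probe were averaged. Levels per mouse are the mean of its Cy3 and Cy5 channels after Aquantile normalization. A linear model with an intercept was fitted to the log2 ratios with limma 3.58.1 (R 4.3.3, statmod 1.5.0), as in the study's methods, with Benjamini-Hochberg adjustment over 41174 probes and an FDR of 10%. Symbols came from RefSeq accessions (22072 probes) or the description (1366), and 17736 probes stayed unnamed. A probe was present if it was brighter, in both dyes of every array, than the 95th percentile of the 314 negative controls. The median raw intensity of an array was 109 to 169 in Cy3 and 77.9 to 165 in Cy5, and 80.1% to 88.4% of probes were well above background. The number of mice, 5 per genotype with each on 2 arrays, limits the precision.

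The members, lists and alternatives were chosen with earlier results of these data known. Named are every member, Dclk1, per list the called probes with the smallest p (at most 4, or the first if none passed), and the 5 probes most like Gng3 over arrays. Bscl2 was named for its position. All arrays were scanned on the same day, each on its own slide, so no batch term beyond dye orientation was fitted. The scripts were tested on simulated data. The oligodendrocyte list is not reported here as a whole. The ABI values were not used, because no member could be named there, and the comparison planned for that platform was not run. The Illumina columns could not be tied to mice, and the Affymetrix and LGTC samples were not analysed here.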

Additional observations from a re-analysis of the deposited data

Results flagged for a closer look

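Of 30 groups of values checked (the 5 WT mice, the 5 TG mice and the 10 arrays for each of the 10 subunit genes), 1 held a sample far from the others, and chance alone gives about 1 in 20. In the WT mice the level of Gnb5, the beta subunit gene that pairs with R7 RGS proteins, was 9.54 in WT4, against 9.64 in the nearest WT mouse. The gap was 0.799 of the whole range of the group. That range is narrow, and the TG mice spread further to both sides.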

How the results depend on the processing

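The Gng3 log2 ratio of 0.566 ran from 0.502 to 0.628 when an array or a mouse was left out, and its level difference between genotypes from 0.524 to 0.599. It was -0.566 with arrays 1 to 5 exchanged for 6 to 10, per array, per mouse and as a level, as were Gng2 at -0.375 and Gng13 at -0.694. Apart from this exchange, Gng2, Gng3 and Gng13 were positive under all 36 alternatives. The count of member probes called, 5 with 7.41% of all probes called, was 1 with 1 value per mouse, as labelled (0.0583%) or exchanged (0.0267%). It was 3 at an FDR of 5% (limit 0.05, 2.92%) and 2 on arrays 1 to 5 alone (9.51%). It was 6 on arrays 6 to 10 alone (8.14%) and with median centring (3.24%). So it was with the WT or TG mouse as random block (14.5% and 11%). With the probes of a gene averaged, 3 of the 10 genes were called, those of the 5 probes (8.21% of all genes or unnamed probes). Without an array or mouse the count of member probes ran from 2 to 7. It was 2 without WT3 (0.889%), WT4 (0.685%) or TG2 (2.48%), and 7 without WT6 (7.77%) or array 5 (8.27%). It was 3 without WT5, TG3, TG4, TG5 or array 2, 3, 6, 8 or 9 (1.97% to 4.9%). All DEGs, 3053, ran from 282 (without WT4) to 3404, with 366 without WT3, and WT5, every TG mouse and arrays 2, 3, 6, 8 and 9 also moved the count by over 1.5 times. The count was 1335 with median centring, 92.3% of it higher against 49.3% in the main analysis, 24 with 1 value per mouse (11 after the exchange), 5969 with the WT mouse as random block and 1203 at an FDR of 5%. Of the 11 calls over the lists and neighbours, 1 to 12 were left without an array or mouse, 4 with median centring, 7 with the log ratio of the scanner software, 0 with 1 value per mouse (0 after the exchange), 18 with the WT mouse as random block and 4 at an FDR of 5%.

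The labels do not say whether the mouse numbers shared by both genotypes pair mice. The 4 such pairs correlated between -0.246 and -0.104, and 0 of 4 WT mice correlated best with their own number. The best partners were TG4 for WT1, TG5 for WT3, TG3 for WT4 and TG1 for WT5. Each of these had shared an array with that WT mouse, and no pair of the same number had, so the check cannot decide the question. With the mouse number as replicate block, 0 DEGs, 0 member probes and 0 list probes passed, and without the block over the same mice 4, 0 and 0. The Gng3 ratio over these mice was 0.611 with and without it. The alternatives with single orientations, with the TG mouse as block, without flagged spots, without the block and with exchanged mice were chosen after seeing the data. The planned ABI alternatives and a slide or scan block were not run. The causes of these moves were not tested.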
